A study of Mus musculus with 6 samples.

Results

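A set of 9 genes that write, regulate or mark the tails of messenger RNA was followed from the mouse zygote to the 2-cell embryo and in zygotes that lack the poly(A)-binding protein PABPN1L. They are the poly(A) polymerase genes Papola and Papolg, the terminal nucleotidyltransferase genes Papd4, Papd5 and Fam46c, the terminal uridylyltransferase genes Zcchc6 and Zcchc11, the RNA-binding regulator gene Cpeb1 and Cpsf4l, a relative of a cleavage factor gene. They were chosen by name, with earlier results of these data known, and all 9 are among the 23259 gene names of the deposited table. RefSeq lists Papd4 as Tent2, Papd5 as Tent4b, Fam46c as Tent5c, Zcchc6 as Tut7 and Zcchc11 as Tut4.

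Per the labels, there are 6 samples, 2 each of wild-type (WT) zygotes, of Pabpn1l-null zygotes and of WT 2-cell embryos. The protocol has 50 zygotes per sample, collected 26 h after the hormone hCG and kept for 2 h in medium with 200 μM 4-thiouridine. This uridine analogue enters RNA during transcription, and after alkylation its positions are read as T-to-C mismatches. The same text stands for the 2-cell samples and gives no time of their own. The sources used here do not give the allele or the strain. No group went without label. The table has 1 column pair per group, total reads and reads with a T-to-C mismatch (T-to-C reads), so no difference below has a replicate check, and each test compares libraries, not conditions.

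Most mRNAs receive their poly(A) tail in the nucleus, where the cleavage and polyadenylation complex cuts the transcript and the polymerase of Papola, or its relative from Papolg, extends the end. Growing oocytes store many mRNAs with short tails. During meiotic maturation CPEB1, bound to a U-rich element in the 3′ UTR, directs the lengthening of such tails in the cytoplasm, a step in which the polymerase of Papd4 (GLD-2) takes part in frogs. After deadenylation, the enzymes of Zcchc6 (TUT7) and Zcchc11 (TUT4) add uridines to short tails, which marks the RNA for decay.

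Named genes held 3001473 reads in the WT zygote column, 1270347 in the null column and 4020443 in the 2-cell column, of which 3.03%, 3.86% and 4.54% were T-to-C reads. Null-column reads were clumped: where WT zygotes predicted 3 to 5 reads in it (969 genes), 54.9% of genes had none, against 2.08% for independent reads. In every column 7 reads were then counted as 1 molecule. For both WT columns this is an assumption, as the zeros were counted in the null column alone and predicted from WT zygote counts. Genes with exactly 1 read numbered 978 in the WT zygote column, 184 in the null column and 545 in the 2-cell column. At 7 reads per molecule a count of 0 allows up to 3 molecules, or 21 reads. Intervals and limits cover counting error only. Pabpn1l itself had 47 reads for WT zygotes, 4 for the null column and 14 for 2-cell embryos. The 7 oocyte markers summed to 11452 to 38772 reads per column, and the 4 markers of the 2-cell stage in the table to 50, 8 and 7597 in the same order. The 10 markers of cumulus and granulosa cells summed to 27 to 123 reads, with Cyp19a1 the richest. Of these 4 were at 0 (Amh, Inhba, Inha and Cyp11a1), and the others had reads. The 6 sperm markers summed to at most 8, with Odf1 the richest and 2 at 0 (Prm1 and Tnp2). The 4 blood markers summed to at most 42, with Laptm5 the richest and 2 at 0 (Ptprc and Hbb-b1).

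The promoters of 3 of the genes that fell by the 2-cell stage are shown because they differ in CpG content and in the motifs they hold, which the choice of genes did not use. RefSeq (GRCm38.p6) gives 13 promoters for the 9 genes, each from 250 bases before to 50 bases after a start. Fam46c, chr3:100489143-100489442, Cpeb1, chr7:81454709-81455008, and the 2 starts of Cpsf4l, chr11:113709968-113710267 and chr11:113709477-113709776, are all on the minus strand and are written 5′ to 3′. Capitals mark the 4 motifs searched on both strands. These were the GC box, GGGCGG, then the CCAAT box, then the TATA box with the letters TATAAA, and the E-box with the letters CANNTG. Some matches adjoin.
Fam46c: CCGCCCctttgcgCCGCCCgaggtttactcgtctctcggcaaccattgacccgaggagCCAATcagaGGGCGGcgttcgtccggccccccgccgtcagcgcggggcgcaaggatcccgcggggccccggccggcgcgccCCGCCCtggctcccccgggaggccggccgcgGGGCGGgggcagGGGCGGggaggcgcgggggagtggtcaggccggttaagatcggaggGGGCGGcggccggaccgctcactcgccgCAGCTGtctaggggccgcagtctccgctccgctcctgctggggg
Cpeb1: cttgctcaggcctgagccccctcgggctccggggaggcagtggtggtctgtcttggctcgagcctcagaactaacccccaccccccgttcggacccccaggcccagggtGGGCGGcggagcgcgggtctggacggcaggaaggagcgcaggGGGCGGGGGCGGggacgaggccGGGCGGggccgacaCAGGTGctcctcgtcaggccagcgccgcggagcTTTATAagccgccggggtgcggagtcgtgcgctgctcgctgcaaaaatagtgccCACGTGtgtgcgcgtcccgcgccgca
Cpsf4l, upstream start: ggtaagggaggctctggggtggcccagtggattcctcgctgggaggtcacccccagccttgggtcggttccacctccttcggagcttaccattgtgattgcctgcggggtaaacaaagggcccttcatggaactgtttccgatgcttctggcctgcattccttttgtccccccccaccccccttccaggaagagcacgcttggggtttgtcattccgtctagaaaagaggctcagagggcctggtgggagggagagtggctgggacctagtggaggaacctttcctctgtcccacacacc
Cpsf4l, downstream start: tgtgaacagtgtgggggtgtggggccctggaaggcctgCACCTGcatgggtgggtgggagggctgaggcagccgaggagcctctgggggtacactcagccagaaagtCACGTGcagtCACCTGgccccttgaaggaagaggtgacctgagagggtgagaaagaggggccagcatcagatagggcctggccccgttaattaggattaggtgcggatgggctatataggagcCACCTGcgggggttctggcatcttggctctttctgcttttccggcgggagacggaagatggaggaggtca
The Fam46c promoter held 42 CpG dinucleotides and 7 GC boxes, and that of Cpeb1 held 33 and 4 with 1 TATAAA. The promoters of Cpsf4l held 7 and 8 CpG dinucleotides and no GC box, and the downstream one had 4 E-boxes. Among 32851 promoters the median was 7 CpG dinucleotides, and GGGCGG was in 35.7%, CCAAT in 37.4%, TATAAA in 13.6% and CANNTG in 72.3%. Of the 13 promoters 12 were above that CpG median, and the upstream one of Cpsf4l was at it. A match describes the letters, not a site that is used.

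Total reads of 5 of the 9 genes were lower in 2-cell embryos than in WT zygotes, and none was higher. The genes that fell encode the poly(A) polymerases PAPOLA and PAPOLG, the cleavage factor relative, CPEB1 and FAM46C, and their ratios lay between 0.0849 and 0.294. All of the 9 genes but Zcchc11 had the 20 reads over all columns needed for the test, which leaves 8. Across the 11262 genes that entered this exact conditional binomial test 17.0% were called lower and 17.3% higher, where a call takes a 2-fold difference or more and a p under 0.05 after adjustment (Benjamini-Hochberg). The median log2 ratio was -2.05 over the 8 genes, -2.50 over the 6 above 21 reads in every column and 0.04 over all genes. Each library pools whole embryos, so fewer cells with an RNA and less of it per cell cannot be told apart, and a scaled level does not separate loss of a transcript from gain of others.

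**Figure D1:**
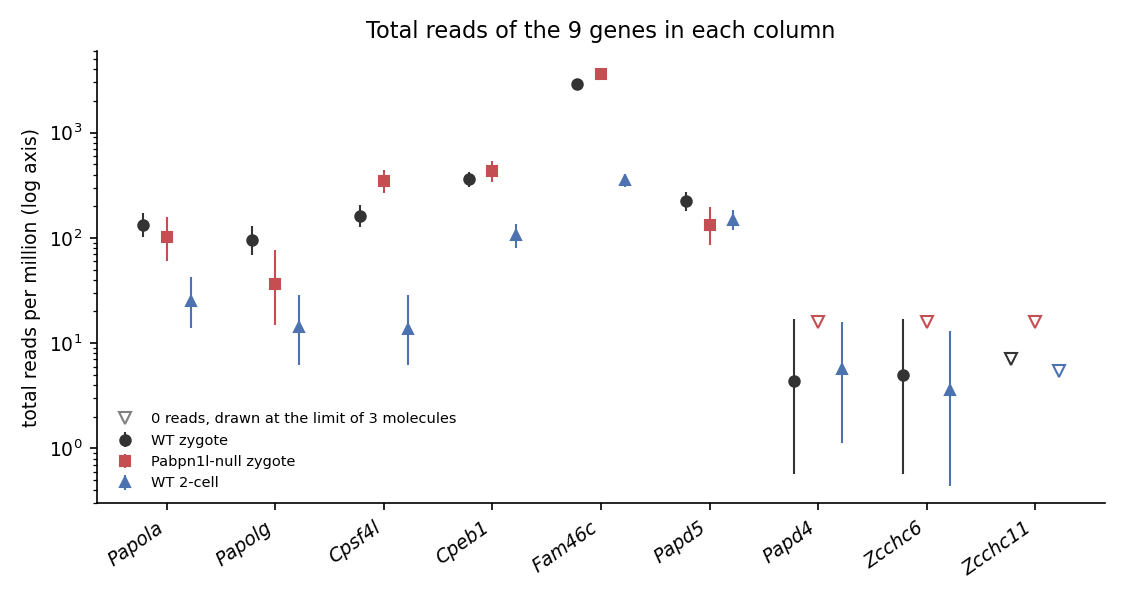
Total reads as RPM, TMM-scaled, on a log axis for the 9 genes in the WT zygote, null zygote and WT 2-cell columns, with exact 95% intervals on molecules. Papola, Papolg, Cpsf4l, Cpeb1 and Fam46c have their lowest point in 2-cell embryos, and open triangles mark columns with 0 reads at the limit of 3 molecules. Levels of different genes are not adjusted for transcript length.

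Papola, on chromosome 12 at 105784677 to 105838949, makes the canonical nuclear poly(A) polymerase. Its reads numbered 398 for WT zygotes, 134 for the null column and 98 for 2-cell embryos, or 133, 101 and 25.3 RPM, the reads scaled to the size of the column. The 2-cell column was the low one, at 0.190 of the WT zygote level (95% interval 0.0976 to 0.345, adjusted p = 3.24e-09 by the exact conditional binomial test). Papolg, on chromosome 11 at 23860145 to 23895293, makes a second nuclear polymerase. Its reads were 284, 48 and 55 in the same order, or 95, 36.3 and 14.2 RPM. The 2-cell level was 0.150 of WT zygotes (0.0610 to 0.325), and this interval overlaps that of Papola. In null zygotes the point value of Papolg lay between both WT columns, at 0.382 of WT zygotes (0.146 to 0.868), which did not pass (adjusted p = 0.263, exact conditional binomial test). Papola at 0.761 (0.423 to 1.28) did not pass either. Papolb, an intronless relative of Papola, may share reads with it. Papolg overlaps the non-coding gene Gm12061 over 1042 bases, which has no counts under this name.

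Cpsf4l, on chromosome 11 at 113698171 to 113710167, resembles Cpsf4, which encodes a zinc-finger subunit of the cleavage and polyadenylation specificity factor. It was the 1 gene of the 9 to pass in both comparisons with WT zygotes, and it passed in opposite directions. Its reads numbered 482 in WT zygotes, 463 in the smaller null column and 53 in 2-cell embryos, or 161, 350 and 13.7 RPM. The null level was 2.17 times that of WT zygotes (1.52 to 3.07, adjusted p = 0.0011 by the exact conditional binomial test), and the 2-cell level was 0.0849 of it (0.0372 to 0.186). The null column was thus the highest and the 2-cell column the lowest, with no overlap of the intervals of the 3 levels. Among all genes tested in null against WT zygotes 0.728% were higher and 0.710% lower, and of the 8 genes here 1 was higher and 0 lower. When reads were tested by edgeR's exact method with a biological coefficient of variation set to 0.4, the higher level in null zygotes lost its call (adjusted p = 0.748, against 7.58e-30 to 0.748 over all 9 alternatives). With every read counted as 1 molecule 4 of the 8 genes tested passed in null against WT zygotes. Cpsf4l was higher, and Papolg, Papd4 and Zcchc6 were lower. Among all genes 2747 passed under this setting, against 162 in the main test. Papd4 had 13 reads in WT zygotes and Zcchc6 had 15, and both had 0 in the null column. These counts are under the read limit given above. Cpsf4l overlaps the gene D11Wsu47e over 1205 bases, and D11Wsu47e had 1, 0 and 2 reads in the 3 columns.

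**Figure D2:**
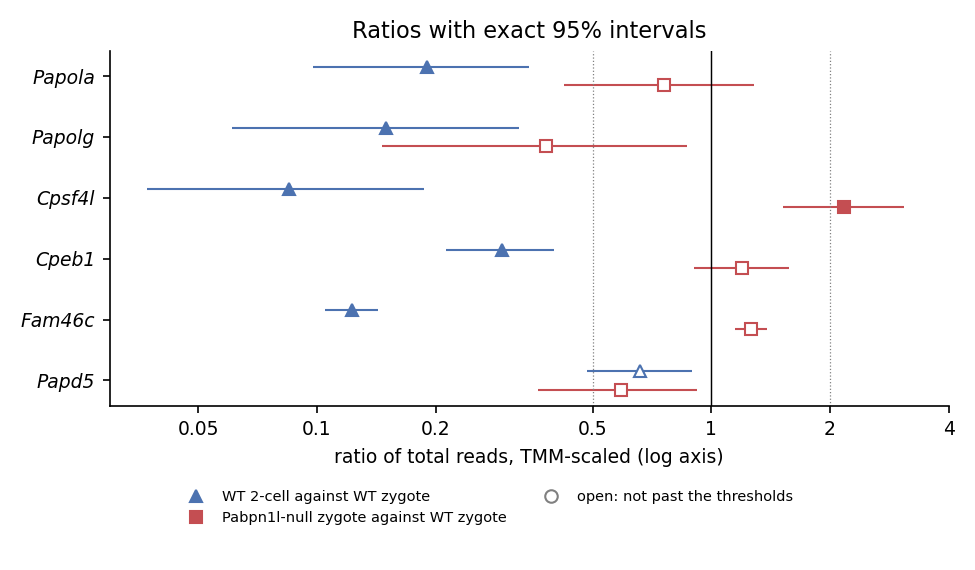
Ratios of total reads to WT zygotes on a log axis for the 6 genes above the limit of 21 reads in every column, with exact 95% intervals. Filled symbols passed the thresholds: Papola, Papolg, Cpsf4l, Cpeb1 and Fam46c lie below 0.5 in 2-cell embryos, and Cpsf4l alone lies above 2 in null zygotes.

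Cpeb1, on chromosome 7 at 81347026 to 81458001, makes the protein that reads the cytoplasmic polyadenylation element. Of its reads 1074 fell to the WT zygote column, 568 to the null column and 409 to 2-cell embryos, or 359, 429 and 106 RPM. Both zygote columns were above the 2-cell column, which stood at 0.294 of WT zygotes (0.212 to 0.398, adjusted p = 3.38e-16 by the exact conditional binomial test). With edgeR's exact method and variation set as above the call was lost (adjusted p = 0.117, against 1.05e-110 to 0.117 over all 10 alternatives). The null level was 1.19 times that of WT zygotes, and its interval of 0.902 to 1.58 includes 1. Cpeb1 overlaps the pseudogenes Rpl7a-ps9 (833 bases) and Gm18922 (906 bases), which have no counts under these names.

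Papd4, on chromosome 13 at 93145855 to 93192435, makes GLD-2, a cytoplasmic poly(A) polymerase. It had 13 reads for WT zygotes, 0 for nulls and 22 for 2-cell embryos. Both zygote columns were under the limit of 21 reads and the 2-cell column was 1 read above it, so its level could not be compared at this depth.

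Fam46c, on chromosome 3 at 100468057 to 100489192, makes a noncanonical poly(A) polymerase that is known for lengthening the tails of mRNAs of secreted proteins. It held 74.5% of all reads of the 9 genes in WT zygotes, 77.6% of those in nulls and 52.6% at the 2-cell stage. Its reads numbered 8604, 4799 and 1364, or 2877, 3626 and 352 RPM. The 2-cell level was 0.122 of WT zygotes (0.105 to 0.143, adjusted p = 6.36e-244 by the exact conditional binomial test). Null zygotes were 1.26 times WT zygotes (1.15 to 1.39), with an adjusted p of 0.000166 in the same test but under the 2-fold threshold. Against 2-cell embryos, from which they differ in both genotype and stage, null zygotes held 10.3 times the level (8.77 to 12.1).

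Papd5, on chromosome 8 at 88199213 to 88263314, makes a noncanonical poly(A) polymerase that tails nuclear non-coding RNAs and adds mixed tails to mRNA. It had 674, 176 and 576 reads, or 225, 133 and 149 RPM, so WT zygotes were the highest. Unlike the 5 genes that fell, its 2-cell ratio of 0.660 (0.485 to 0.895) was short of 2-fold, although the adjusted p was 0.0189 in the exact conditional binomial test. That interval lies above those of Papola, Papolg, Cpsf4l, Cpeb1 and Fam46c. In null zygotes the ratio was 0.590 (0.363 to 0.921) and did not pass (adjusted p = 0.262, same exact test).

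The uridylyltransferase genes were at the limit of detection. Zcchc6, on chromosome 13 at 59771876 to 59823169, had 15 reads for WT zygotes, 0 for nulls and 14 for 2-cell embryos. It overlaps the non-coding gene Etohd2 over 1805 bases, which had 14, 0 and 48 reads in the same order. Zcchc11, on chromosome 4 at 108459410 to 108559415, had 0 reads in all 3 columns, as did 30.2% of all gene names. The limit of 3 molecules equals 7.02 RPM for WT zygotes, 15.9 for nulls and 5.42 for 2-cell embryos. The sources used here do not say which part of a gene a row covers, so a low count is not shown to be a low transcript level.

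Ordered by the 2-cell ratio, the 6 genes above the limit ran Cpsf4l (0.0849), Fam46c (0.122), Papolg (0.150), Papola (0.190), Cpeb1 (0.294) and Papd5 (0.660). The intervals of each neighbouring pair overlapped except those of Cpeb1 and Papd5. Fam46c and Cpeb1, whose counts were higher and intervals narrower, also did not overlap (0.105 to 0.143 and 0.212 to 0.398). The comparison of null zygotes against 2-cell embryos uses the same columns again, and in it genotype and stage differ together. There 4 of the 8 genes were higher and 0 lower, beside 14.0% higher and 12.8% lower of all genes. The 4 were Papola (4.00), Cpeb1 (4.06), Fam46c (10.3) and Cpsf4l (25.6). With edgeR's exact method the calls of Papola (adjusted p = 0.0689) and Cpeb1 (adjusted p = 0.0586) were lost.

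**Figure D3:**
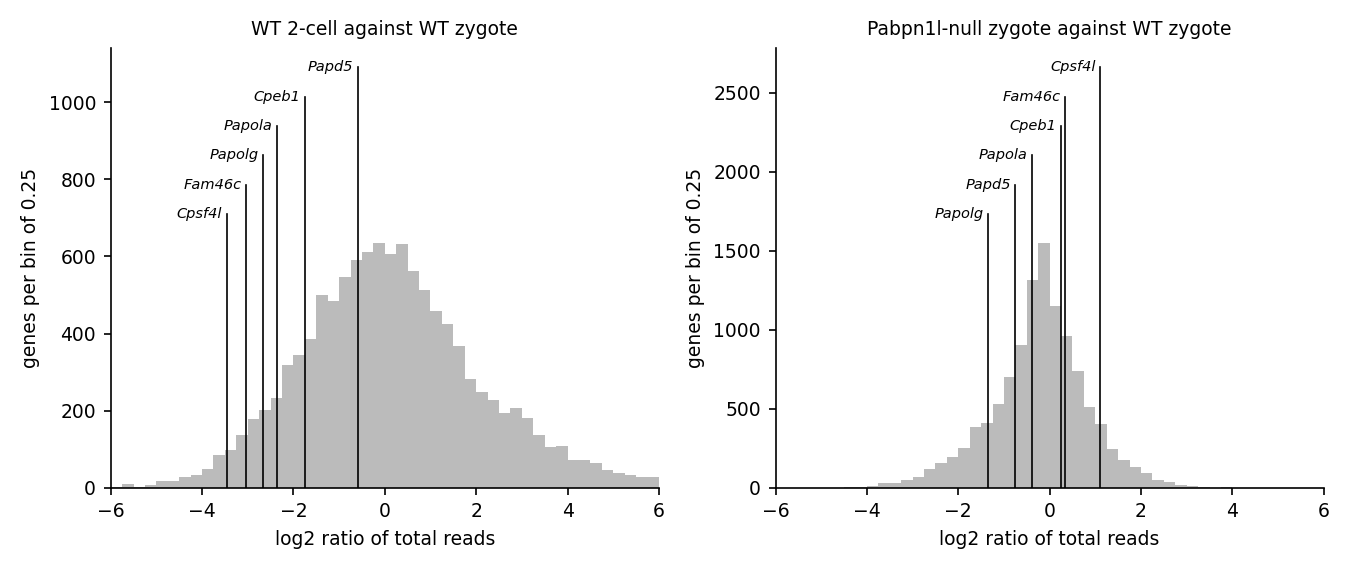
Histograms of the log2 ratio of total reads over the 11262 genes tested, in bins of 0.25, drawn from -6 to 6, with vertical lines at the 6 genes above the limit of 21 reads. The left panel (2-cell embryos against WT zygotes) has all 6 lines below 0, and the right panel (null against WT zygotes) has lines on both sides, with Cpsf4l at 1.11 the highest.

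In the zygote columns T-to-C reads, the readout of label taken up in the 2 h, were concentrated in 2 of the genes. Fam46c had 447 (WT zygotes), 255 (null) and 44 (2-cell), and Cpsf4l had 40, 68 and 3. The other 7 genes together had at most 50 in any column, the highest single count being 16 for Papd5 in WT zygotes. In 2-cell embryos Cpsf4l had fewer than Papd5 (8), Cpeb1 (8) and Papola (5). Fam46c was also the richest in total reads. It held 83.2% of the T-to-C reads of this gene set in WT zygotes and 76.6% in nulls. Its shares of total reads there were 74.5% and 77.6%. The authors' deposited table calls Fam46c Positive in all 3 columns and Cpsf4l Positive in both zygote columns, and the other 7 genes Negative throughout. In the authors' deposited table rows called Negative had at most 30 T-to-C reads in either WT column and 15 in the null column, and rows called Positive had at least 3 in the null column and 5 in the others.

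In 2-cell embryos T-to-C reads of Fam46c were lower than in WT zygotes, at a ratio of 0.0760 (0.0256 to 0.166, adjusted p = 8.49e-15 by the exact conditional binomial test). Of 5 genes with the 10 T-to-C reads needed, 1 was lower and 0 higher, beside 1.69% lower and 4.34% higher among 4376 genes. Cpsf4l at 0.0579 (0 to 0.656) had an adjusted p of 0.0872 in the same exact test and did not pass. In null against WT zygotes T-to-C reads of Cpsf4l had a ratio of 3.84 (1.24 to 12.6) and an unadjusted p of 0.0113 in the exact conditional binomial test. None of the 5 passed after adjustment, with 1 at an unadjusted p under 0.05 and 0 called by edgeR's exact test, beside 0.0686% higher and 0% lower of all genes.

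**Figure D4:**
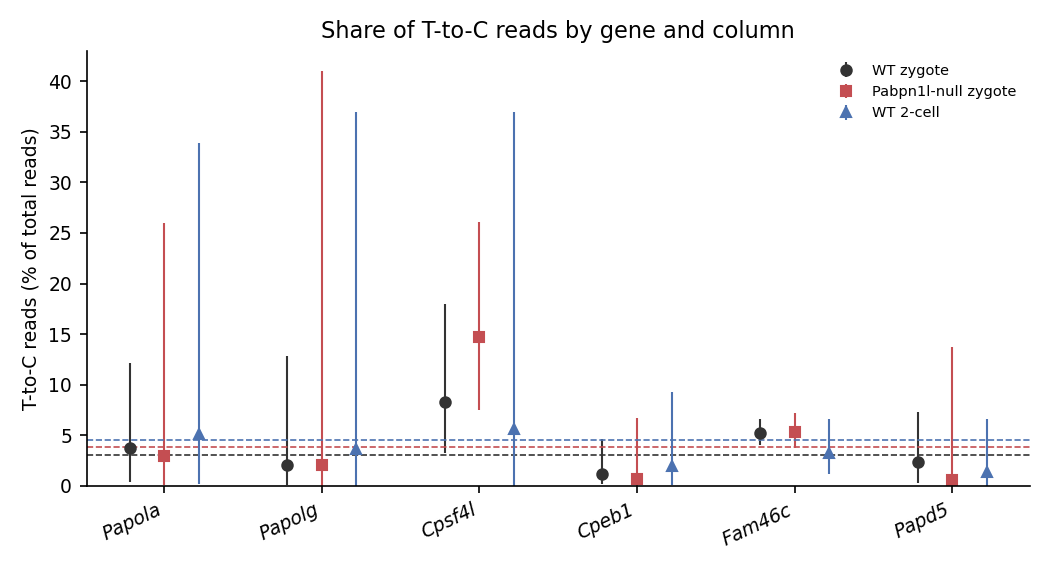
T-to-C reads as a percentage of total reads for 6 genes in the 3 columns, with exact 95% intervals on molecules and dashed lines at the share of each whole column. Cpsf4l has the highest point in null zygotes (14.7%), Fam46c has the narrowest intervals, and the intervals of each gene overlap between columns.

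The share of T-to-C reads asks how much of a gene's RNA was labelled, and it was not shown to differ between columns for any of the genes. Fam46c had 5.20% in WT zygotes (4.03 to 6.60), 5.31% in null zygotes (3.70 to 7.19) and 3.23% in 2-cell embryos (1.14 to 6.58). Cpsf4l had 8.30% (3.26 to 18.0), 14.7% (7.51 to 26.1) and 5.66% (0 to 36.9) in the same order. Among genes with at least 100 reads the zygote shares were at percentile 88.9 for Fam46c and 95.5 for Cpsf4l in WT zygotes, and 78.1 and 97.5 in null zygotes. Fam46c was at percentile 67.5 in 2-cell embryos, where Cpsf4l had under 100 reads. Cpeb1 had 1.21%, 0.704% and 1.96% and Papd5 2.37%, 0.568% and 1.39%, with intervals that held the gene medians of 2.12%, 2.73% and 2.06%. By Fisher's exact test on molecules 0 of 6 genes passed in either comparison with WT zygotes, and 0 had an unadjusted p under 0.05. Of all genes 1.84% were higher and 0.0579% lower in 2-cell embryos, and 0% higher and 0.0167% lower in null zygotes. Without an unlabelled control, the part of these reads that comes from sequencing error or sequence differences is unknown.

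The rest of the pathway did not move as one group between WT zygotes and 2-cell embryos. Of 19 genes of nuclear cleavage and polyadenylation, 16 were tested, and 4 were higher and 0 lower, beside 17.3% and 17.0% of all genes, with a median log2 ratio of 0.74 beside 0.04 for all genes. Higher were Clp1, the RNA kinase subunit of cleavage factor II (5 and 903 reads, ratio 139, 17.6 to 3964), Rbbp6 (18 and 471, 20.2, 5.65 to 85.7) and Cstf2t, a cleavage stimulation subunit (175 and 1284, 5.66, 3.71 to 8.96). Clp1 and Rbbp6 were under the limit of 21 reads in WT zygotes, so only the lower bounds of their intervals bear on the size. The other higher gene was Papolb, the intronless relative of Papola (52 and 325, 4.83, 2.28 to 13.3), outside the 3 highest that were to be named. Its T-to-C reads were 51 of the 52 in WT zygotes and 83 of the 325 in 2-cell embryos, a share taken up under the other observations. No value here shows that its product acts in the nucleus.

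Among 6 other terminal nucleotidyltransferase genes 1 was higher and 2 were lower, beside 17.3% and 17.0% of all genes. The median log2 ratio of the list was 0.29. Papd7, the closest relative of Papd5, rose from 2209 reads in WT zygotes to 8738 in 2-cell embryos (ratio 3.05, 2.69 to 3.46). Fam46b, a relative of Fam46c, fell from 5643 to 1540 (0.211, 0.181 to 0.245), and Mtpap, the mitochondrial poly(A) polymerase gene, from 349 to 113 (0.25, 0.131 to 0.441). The T-to-C share of Fam46b went from 1.08% to 14.4% and passed the share test (adjusted p = 1.07e-12, Fisher's exact test), whereas that of Fam46c was 5.20% and 3.23% and did not pass. The difference between the 2 genes was not tested.

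**Figure D5:**
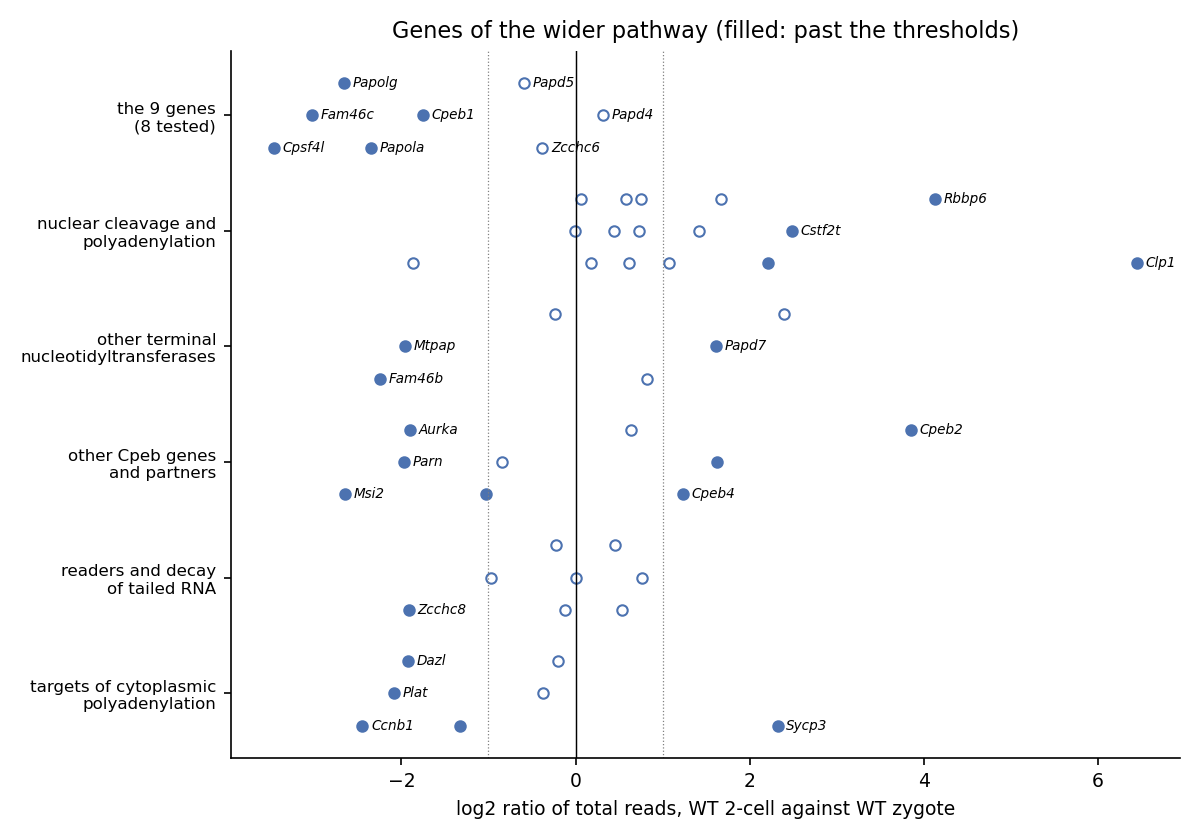
Log2 ratios of total reads in WT 2-cell embryos against WT zygotes for the 9 genes (8 tested) and for 5 lists of related genes, with dotted lines at a 2-fold difference. Filled points passed the thresholds; the genes here and the targets of cytoplasmic polyadenylation have most filled points on the left, and nuclear cleavage and polyadenylation has all of its filled points on the right.

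For the next 2 lists the shares to set beside the counts are again 17.3% higher and 17.0% lower of all genes. Of 9 tested genes among the other Cpeb genes and partners, 3 were higher and 4 lower (median log2 ratio -0.84). Among those higher were Cpeb2 (8 reads in WT zygotes, under the limit, and 202, ratio 19.5, 3.71 to 914) and Cpeb4 (109 and 337, 2.39, 1.29 to 4.37), while Cpeb1 was lower. In T-to-C reads Cpeb4 was also higher, with 4 and 106 (ratio 20.5, 1.78 to 488). Lower in total reads were the Musashi gene Msi2 (113 and 20, 0.137, 0.0270 to 0.506), Parn, a deadenylase (256 and 82, 0.247, 0.119 to 0.491), and Aurka, a mitotic kinase (1449 and 500, 0.266, 0.199 to 0.348). Of 8 tested readers and decay factors of tailed RNA 1 was lower and 0 higher (median -0.06). This was Zcchc8, a subunit of the nuclear exosome targeting complex (1188 and 405, 0.263, 0.192 to 0.357).

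Of 7 tested genes known as targets of cytoplasmic polyadenylation in oocytes 4 were lower and 1 higher in 2-cell embryos (median log2 ratio -1.33). Among all genes 17.0% were lower and 17.3% higher. Ccnb1, a cyclin of meiosis and mitosis (2544 and 601 reads, 0.182, 0.143 to 0.232), Plat, the tissue plasminogen activator gene (616 and 185, 0.232, 0.141 to 0.357), and the germ cell RNA-binding gene Dazl (2375 and 807, 0.262, 0.210 to 0.325) were lower. Sycp3, of the meiotic chromosome axis, was higher (22 and 158, 5.54, 1.79 to 30.8). In null zygotes Plat was the 1 gene of the 5 lists to pass, at 562 reads against 616 (ratio 2.06, 1.5 to 2.81, adjusted p = 0.000453 by the exact conditional binomial test). In this list 4 of 7 genes had an unadjusted p under 0.05. Ccnb1 (0.630, 0.499 to 0.786) and Dazl (0.586, 0.458 to 0.743) were on the other side of 1, short of 2-fold. Mos, not among the genes to be named, was on the side of Plat (2.05, 1.29 to 3.24). It did not pass (adjusted p = 0.0557, exact conditional binomial test). In the other 4 lists 0 genes passed, beside 0.728% higher and 0.710% lower of all genes. In the order above these lists had 1, 0, 2 and 1 genes at an unadjusted p under 0.05 in the same exact test. Of the 8 tested genes of the main set 4 were under that value. The share of all genes under it was not computed, so no excess can be read from any of these counts. Median log2 ratios in null against WT zygotes were -0.07 for the 6 genes above the limit in every column (-0.57 with Papd4 and Zcchc6, at 0 reads in the null column) and from -0.67 to 0.39 for the lists, with -0.15 for all genes.

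Genes with a pattern like those at the ends of the 2-cell order were sought over 4 log2 ratios, total and T-to-C reads in 2-cell embryos and in null zygotes, each against WT zygotes. All 4 share the WT zygote column, so the distances only describe likeness. For Cpsf4l, the lowest, the nearest of 1753 genes with at least as many reads were Dnajc11 (distance 1.02), the small GTPase gene Diras2 (1.10) and the maternal-effect gene Zar1 (1.13). Zar1 had 575, 577 and 71 reads for WT zygotes, nulls and 2-cell embryos. Papd5 was the highest that passed both read filters, since Papd4 and Zcchc6 did not. The nearest to Papd5 of 1258 genes were the growth factor gene Tgfb2 (0.316), Cdc42ep2 (0.522) and 4632434I11Rik (0.544).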

How the data were processed

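In the table the authors deposited, every group has raw read counts per row, T-to-C read counts and a Positive or Negative call. Per the submitters' processing notes reads were aligned to mm10. No aligner, counting tool, annotation, strand or treatment of duplicate reads is named in the sources used here, nor is it said whether a column merges both samples of its group. Of 30493 rows 47 with a date for a name were left out, and of several rows for 1 name the one richest in reads was used. Each of the 9 genes had 1 distinct row.

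TMM factors from edgeR 4.0.16 in R 4.3.3 (WT zygote 0.996, null 1.04, 2-cell 0.963), computed on genes with at least 20 reads, scaled both kinds of reads. Reads were divided by 7 and rounded to molecules for the exact conditional binomial test and Fisher's exact test of the T-to-C share (at least 20 reads in both columns). Adjustment was by Benjamini-Hochberg across every gene tested. Ratios use reads, and log2 ratios add 0.5 molecule. Each interval is a 95% Clopper-Pearson interval (exact) from molecules. The planned quasi-likelihood test needs replicates and could not be run. The test was checked on data simulated in clumps of 7 reads without variation between libraries. The test assumes the same, so the check does not bear on such variation.

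The genes, lists, the 7 reads per molecule and the thresholds were chosen with earlier results of these data known, and the promoters, motifs and the fit on both WT columns alone after the data were seen. Named genes are the 9, per list up to 3 called genes per direction in 2-cell embryos and any called in null zygotes, and the 3 nearest patterns of the genes with the lowest and highest 2-cell ratio. One result that this rule would name is not reported here. Promoters are those of RefSeq, matched by symbol or synonym for all 9 genes.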

Additional observations from a re-analysis of the deposited data

How the results depend on the processing

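No paired analysis was possible because the table has 1 column pair per group, and for the same reason no replicate could be left out. Under RLE factors, column totals, both read filters, summed rows and both WT columns alone, the number of the 9 genes called stayed within 1.5 times in the comparisons these were run on. In T-to-C reads of 2-cell embryos against WT zygotes the number called was 1, but 2 with T-to-C reads scaled by their own totals (Cpsf4l also lower), 3 with every read as 1 molecule, 3 with clumps in the null column alone and 2 with edgeR's exact test at an assumed variation of 0.4. For the T-to-C share in that comparison it was 0, but 1 with every read as 1 molecule and 1 with clumps in the null column alone. In null against WT zygotes, total reads, it was 1, but 4 with every read as 1 molecule (Papolg, Papd4 and Zcchc6 lower) and 0 with edgeR's exact test. With every read as 1 molecule it was also 1 in place of 0 for T-to-C reads and 1 in place of 0 for their share. In null zygotes against 2-cell embryos it was 4, but 7 with every read as 1 molecule and 2 with edgeR's exact test. In these cases the cause was not tested, other than that more molecules per read give narrower intervals. Of 380 values of single genes under an alternative, 360 kept their direction and side of the thresholds, 16 passed that had not, 4 no longer passed, and none changed direction. Over all genes, 3856 were called in 2-cell embryos against WT zygotes and 6693 with every read as 1 molecule, and 162 and 2747 in null against WT zygotes. With RLE factors the all-gene median log2 ratio in 2-cell embryos went from 0.04 to 0.28 and the share of higher calls from 50.4% to 60.4%, and in null zygotes against 2-cell embryos from 52.3% to 39.3%. With column totals that share in null against WT zygotes was 61.4% in place of 50.6%. With T-to-C reads scaled by their own totals it was 45.1% in place of 72% in 2-cell embryos. The 5 genes that fell kept their call under every scaling. Depth limits Papd4, Zcchc6 and Zcchc11 most.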

Other observations

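Papolb, an intronless relative of Papola, was singled out after its values were seen. Of its 52 reads in WT zygotes 51 were T-to-C reads, of 9 in null zygotes 9, and of 325 in 2-cell embryos 83 (98.1%, 100% and 25.5%). The share was lower in 2-cell embryos (adjusted p = 0.0191, Fisher's exact test), while total reads were higher. Among 5933 genes with at least 50 reads in WT zygotes, 3 had a T-to-C share of at least 90%: Papolb, Glt28d2 and Gm6531. Papola had 15 T-to-C reads of 398 there. The sources used here do not say how reads matching both genes were counted.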
